A study of Mus musculus with 17 samples.

Results

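Hepatokines are hormones and carrier proteins that the liver releases into blood and that act on fat, muscle, brain or the liver itself. The 9 genes described here were chosen by symbol, as liver-secreted metabolic hormones, from the 52545 genes of the deposited table, and all 9 were found in it. Their values were not used as a filter, but earlier results of these data were known. They were Fgf21, Gdf15, Angptl4, Angptl8, Ahsg, Fetub, Lect2, Rbp4 and Enho. RNA was sequenced from liver outside tumours of male C57BL/6J mice aged 32 weeks. The 5 regular diet mice had no treatment. The 6 vehicle mice had 100 mg/kg DEN (diethylnitrosamine, a liver carcinogen) once in week 1, were fed CDA-HFD (a high-fat diet that lacks choline and holds amino acids in place of protein) and had PBS injected into the peritoneum 1 time a week for 16 weeks. The 6 CLDN1 antibody mice had the same carcinogen and diet, with 500 µg of an antibody to the tight junction protein claudin-1 in each injection. Since carcinogen, diet and injections were given together, their parts in any difference from regular diet cannot be told apart.

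FGF21 acts through FGFR1 with the co-receptor beta-klotho, and its liver gene is known to respond to fasting, fatty acids through PPAR-alpha, and amino acid or endoplasmic reticulum stress through ATF4. GDF15 acts on the hindbrain receptor GFRAL with RET, and its gene is known to respond to cell stress and p53. ANGPTL4 and ANGPTL8 inhibit lipoprotein lipase, and Angptl8 is known to rise with feeding and insulin. Ahsg and Fetub encode the fetuins, abundant plasma proteins with cystatin domains, Lect2 a chemotactic protein linked to insulin resistance, Rbp4 the plasma carrier of retinol, and Enho adropin, a small peptide of energy balance.

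Each library held an estimated 27.7 to 59.5 M fragments (M, mega), and the normalized values summed to 48.2 to 74.6 M in regular diet, 29.7 to 42.1 M in vehicle and 35.4 to 42.8 M in CLDN1 antibody libraries. Regular diet replicate 1 stood apart: it had the highest total, and its values over the mean of the other 4 regular diet libraries were 8.09 for Angptl8, 5.27 for Enho, 3.44 for Fetub, 2.98 for Lect2, 2.82 for Ahsg, 2.58 for Rbp4, 1.33 for Fgf21, 1.09 for Angptl4 and 0.283 for Gdf15, against a median of 1.01 over all tested genes. Among hepatocyte markers, which check the labelled tissue, 11 of 12 were present in every group. Alb was listed at 0 in all 17 libraries, and Trf, which encodes transferrin, in 3 of 6 vehicle and 1 of 6 CLDN1 antibody libraries, with at least 341997 in every other, so neither was used, a choice made after seeing the data. The other 10 summed to 2186960 to 4119400 in regular diet, 486118 to 1601510 in vehicle and 1025150 to 1691660 in CLDN1 antibody libraries. Of these 10 markers 9 fell in vehicle against regular diet, and 8 without regular diet replicate 1. With the same total in each library 7 fell, and with quantile normalization 4. Of all 18624 tested genes 3853 fell as deposited, 1264 with the same total and 5223 with quantile normalization. In CLDN1 antibody against regular diet 5 of the 10 fell as deposited and 4 with the same total. With quantile normalization 1 fell and 1 rose. Of all genes 2634, 831 and 3725 fell in the same order. Summed macrophage markers were 7351 to 21373, 59284 to 247618 and 95843 to 169807 in regular diet, vehicle and CLDN1 antibody libraries. Those of cholangiocytes were 2507 to 4046, 44553 to 99370 and 39546 to 77360. In vehicle mice 6 of 8 macrophage, 5 of 5 cholangiocyte, 5 of 6 T cell and 4 of 7 stellate cell markers rose. Of all tested genes 29.8% rose. Of 5 endothelial markers 0 rose and 1 fell, and 2 of 2 tested adipocyte markers fell. In whole tissue, fewer cells of a type and less RNA per cell cannot be told apart, and the part of cell composition in the differences below was not tested.

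Per kilobase of exon, which allows genes to be compared, Ahsg was the highest of the 9 in every group, with medians of 162189 normalized counts per kb in regular diet, 145338 in vehicle and 202346 in CLDN1 antibody mice. Rbp4 followed, with medians of 91274, 59845 and 92540. Ahsg and Rbp4 overlapped in range in regular diet and vehicle and were apart in CLDN1 antibody mice, and the range of Rbp4 lay above that of the next member in all 3 groups. In regular diet the order continued with Fetub (median 11452 per kb), Angptl8 (7900), Lect2 (4746), Gdf15 (1009), Enho (887), Angptl4 (867) and Fgf21 (85.1). Fetub, Angptl8 and Lect2 overlapped from neighbour to neighbour, as did Gdf15, Enho and Angptl4, and Fgf21 lay below all of them. In vehicle mice Fgf21 moved up to 2279 per kb, overlapping Fetub above it (7826) and Angptl8 below it (1592), and Gdf15 was last with 222. In CLDN1 antibody mice Gdf15 was again last with 313, its range overlapping that of Fgf21 (863), the next above it. The 9 genes together made up 0.952% to 1.96% of the deposited total in regular diet libraries, 0.728% to 2.08% in vehicle and 1.30% to 2.12% in CLDN1 antibody libraries. These totals, also used for the same-total scaling, hold nothing from Alb. In 3 vehicle and 1 CLDN1 antibody libraries they hold nothing from Trf either. The percentages are therefore of the deposited values and not of all liver RNA.

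**Figure D1:**
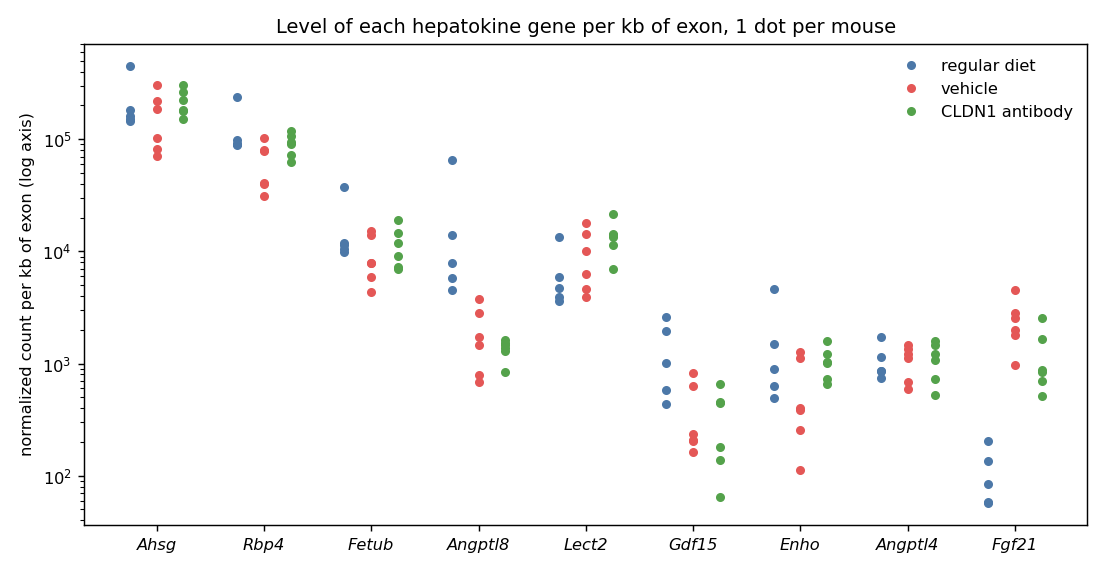
Normalized counts per kilobase of exon (log axis) for the 9 hepatokine genes in the 3 groups, with 1 point per mouse. Ahsg and Rbp4 are at the top in each group, and Fgf21 is the lowest in regular diet but not in vehicle or CLDN1 antibody mice.

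In vehicle against regular diet, 1 of the 9 genes rose (Fgf21), 3 fell (Angptl8, Gdf15 and Rbp4) and 5 did not pass the test, at an adjusted p under 0.05 in limma. Of all 18624 tested genes 50.5% passed, 29.8% higher and 20.7% lower, so 4 of 9 is near the background. In CLDN1 antibody against regular diet, Fgf21 and Lect2 rose and Angptl8 and Gdf15 fell, where 38.9% of all genes passed, 24.8% higher and 14.1% lower. The groups did not overlap for 2 members, Fgf21 and Angptl8, in both comparisons, against 29.6% and 29% of all genes. The members' median log2 difference was -0.74 and -0.20 in these comparisons, and that of all genes 0.04 and 0.01. Both comparisons share the 5 regular diet mice.

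**Figure D2:**
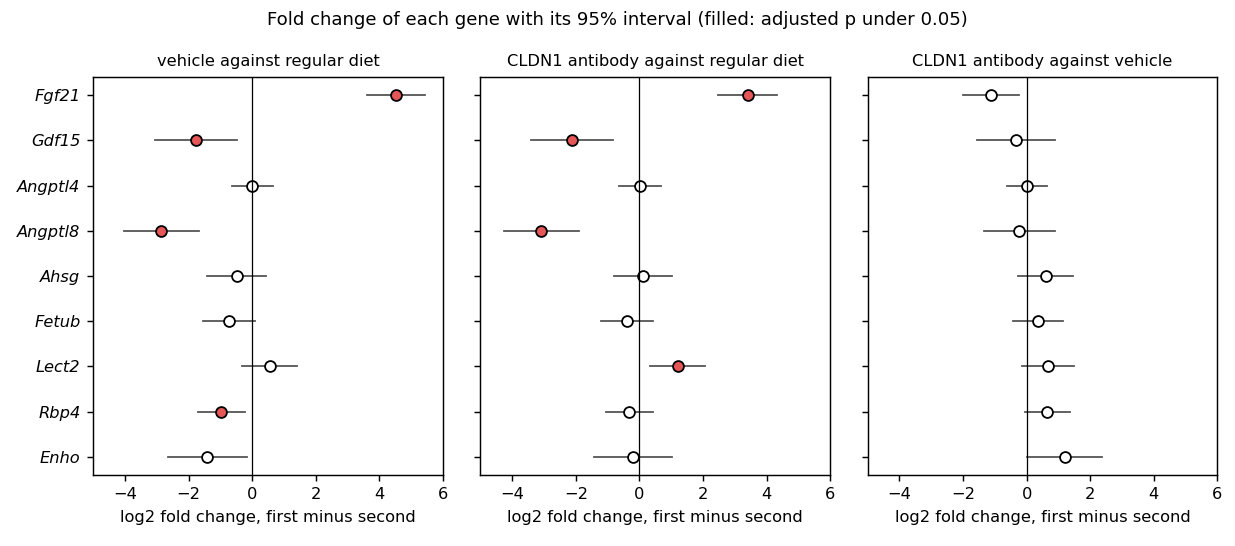
Fitted log2 differences of the 9 hepatokine genes in the 3 comparisons, with 95% confidence intervals as bars and filled points where the adjusted p is under 0.05. Fgf21 stands highest and Angptl8 lowest against regular diet, and the differences between CLDN1 antibody and vehicle lie between -1.11 and 1.21.

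Fgf21 and Angptl8 had the largest differences, in opposite directions, and Gdf15, the other stress-responsive hormone, went down with Angptl8. Their promoters are shown to set these 3 genes' start regions side by side. Each line gives the 250 bases before the transcription start from RefSeq (build GRCm38.p6), at chr7:45615491-45615740 on the minus strand for Fgf21, chr8:70632457-70632706 on the minus strand for Gdf15 and chr9:21835260-21835509 on the plus strand for Angptl8. Capitals mark matches to 4 motifs searched on both strands.
Fgf21: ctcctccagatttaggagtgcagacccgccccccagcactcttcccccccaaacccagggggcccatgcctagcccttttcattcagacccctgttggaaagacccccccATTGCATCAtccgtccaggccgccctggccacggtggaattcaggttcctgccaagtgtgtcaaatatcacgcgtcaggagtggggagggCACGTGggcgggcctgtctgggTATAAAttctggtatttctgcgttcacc
Gdf15: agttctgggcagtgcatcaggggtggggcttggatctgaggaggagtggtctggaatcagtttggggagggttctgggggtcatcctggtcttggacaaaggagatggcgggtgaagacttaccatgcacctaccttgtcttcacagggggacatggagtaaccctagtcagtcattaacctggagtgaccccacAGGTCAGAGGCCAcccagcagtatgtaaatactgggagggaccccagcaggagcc
Angptl8: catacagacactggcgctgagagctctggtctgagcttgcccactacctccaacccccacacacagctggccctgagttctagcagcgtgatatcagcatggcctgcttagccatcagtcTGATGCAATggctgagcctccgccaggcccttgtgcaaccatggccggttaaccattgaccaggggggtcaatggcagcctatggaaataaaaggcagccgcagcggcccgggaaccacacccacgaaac
The motif TGATGNAAT, a form of the response element bound by C/EBP and ATF4 proteins, was found as ATTGCATCA (its reverse complement) 140 to 132 bases before the Fgf21 start and as TGATGCAAT 130 to 122 bases before the Angptl8 start. It occurred in 0.816% of 32851 windows of this length. The E-box CACGTG stood 50 to 45 bases before the Fgf21 start (6.02% of windows) and the TATA box TATAAA 28 to 23 bases before it (12.4%). The Gdf15 window shown, 1 of 2 listed, held AGGTCAGAGGCCA, 55 to 43 bases before the start, a match to the direct repeat of AGGNCA with 1 base between the copies, a form bound by nuclear receptors (0.338% of windows). The other Gdf15 window, whose start does not match the GENCODE start, lacked this repeat and held the E-box 83 to 78 bases before its start. RefSeq windows were listed for 7 of the 9 genes, 10 windows in all, and 3 windows held TGATGNAAT, the third being 1 of 2 for Rbp4 (TGATGAAAT). Angptl4 and Enho had no entry. A match describes letters and does not show binding, and Fgf21 and Angptl8, which share the first motif, differed in opposite directions.

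Fgf21 (chromosome 7, 45613886 to 45615490, minus strand, with this and the other genes' positions in GRCm38) was listed at 128, 194, 54.3, 55.0 and 81.0 normalized counts in the 5 regular diet mice. In vehicle mice the lowest value was 920, the median 2167 and the highest 4328, and in CLDN1 antibody mice they were 485, 821 and 2433. Every mouse given carcinogen and CDA-HFD was above every regular diet mouse. The mean was 102 ± 59.4 in regular diet (SD, n = 5), 2328 ± 1153 in vehicle (SD, n = 6) and 1135 ± 740 in CLDN1 antibody (SD, n = 6). On the log2(value + 1) scale the vehicle difference was 4.52 (SE 0.44, adjusted p = 2.18e-07, 22.9-fold), and that of CLDN1 antibody 3.41 (SE 0.44, adjusted p = 7.80e-06, 10.6-fold). Vehicle minus regular diet was 4.54 in the vehicle libraries that the labels give codes 25 to 30 and 4.50 in those with codes 36 to 42.

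The genes known to act with FGF21 moved in both directions. Fgfr1, its receptor, rose from 562 ± 59.0 (SD, n = 5) to 1739 ± 225 (SD, n = 6) in vehicle mice, by 1.62 (adjusted p = 8.28e-08). Other FGF receptor genes that rose in vehicle mice were Fgfr3 (1.53, adjusted p = 0.000265) and Fgfr2 (0.56, adjusted p = 0.0350). Klb, which encodes beta-klotho, fell from 1939 ± 561 (SD, n = 5) to 536 ± 143 (SD, n = 6), a difference of -1.83 (adjusted p = 2.53e-06), and Fgfr4, the main FGF receptor of hepatocytes, went from a mean of 3267 to 1634 (log2 difference -1.02, adjusted p = 0.000777). In CLDN1 antibody against regular diet the differences were 1.67 for Fgfr1, -1.45 for Klb and -0.66 for Fgfr4, and all 3 passed (adjusted p = 9.02e-08, 4.55e-05 and 0.0235). Of the receptors and binding partners of all 9 hepatokines, 6 of 15 tested genes rose and 5 fell in vehicle mice, and 4 rose and 4 fell in CLDN1 antibody mice. With the same total in each library these counts were 6 and 3 in vehicle and 5 and 1 in CLDN1 antibody mice, and with quantile normalization 6 and 3 in vehicle mice. Cd209a, a lectin reported to bind LECT2, was among those that rose (3.50, adjusted p = 1.92e-06). Gfral was listed at 0 in every library. Beside the receptor counts, 29.8% of all tested genes rose and 20.7% fell in vehicle, and 24.8% and 14.1% in CLDN1 antibody mice, as deposited.

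The integrated stress response, in which stress kinases favour translation of ATF4, a known inducer of Fgf21 and Gdf15, had 9 of 20 genes higher and 3 lower in vehicle against regular diet (list median 0.68), and 6 higher and 3 lower in CLDN1 antibody against regular diet. Psat1, an enzyme of serine synthesis, rose from 29.6 ± 9.09 (SD, n = 5) to 652 ± 233 (SD, n = 6), by 4.39 (adjusted p = 8.40e-10). Nupr1, a stress-induced chromatin protein, rose by 4.77 (adjusted p = 3.95e-08) and Trib3, a pseudokinase that curbs ATF4, by 2.76 (adjusted p = 1.51e-05). Ddit3, which encodes CHOP, went from a mean of 583 to 1134 (1.03, adjusted p = 0.00632), while Atf4 mRNA had means of 6056 and 5502 (-0.15, adjusted p = 0.435), a difference that turned to 0.48 and passed with the same total in each library (adjusted p = 0.00585). Herpud1, a target of endoplasmic reticulum stress, was among the genes that fell (-1.18, adjusted p = 0.000846). With each library scaled to the same total the list counted 15 higher and 0 lower in vehicle and 9 higher and 1 lower in CLDN1 antibody mice, and Herpud1 no longer passed (-0.55, adjusted p = 0.147). Quantile normalization gave 8 higher and 1 lower in vehicle and 6 and 1 in CLDN1 antibody mice. As deposited, 29.8% of all tested genes rose and 20.7% fell in vehicle, and 24.8% and 14.1% in CLDN1 antibody mice. With the same total, 9369 of 18624 rose and 1264 fell in vehicle, and 7063 and 831 in CLDN1 antibody mice.

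Of PPAR-alpha and its targets, the fasting programme, more genes fell than rose on the deposited scale. In vehicle mice 2 of 17 genes rose and 11 fell, and in CLDN1 antibody mice 2 rose and 5 fell. The counts were more even under the other scalings given below. Acaa1b, a peroxisomal thiolase, fell from 60279 ± 14213 (SD, n = 5) to 15215 ± 5101 (SD, n = 6), a difference of -2.04 (adjusted p = 2.41e-06). Rxra, the nuclear receptor that pairs with PPAR-alpha on DNA, fell by 1.17 (adjusted p = 0.000152), a call that quantile normalization ended (-0.41, adjusted p = 0.115), and Ppara itself had a difference of -1.69 (adjusted p = 0.0121). Cidec, a lipid droplet protein, rose from 106 ± 27.6 (SD, n = 5) to 2241 ± 936 (SD, n = 6), by 4.29 (adjusted p = 9.85e-09). With the same total in each library the vehicle count was 4 higher and 5 lower, and with quantile normalization 4 higher and 4 lower. In CLDN1 antibody mice it was 3 higher and 2 lower under both scalings. Over all tested genes, 29.8% rose and 20.7% fell in vehicle, and 24.8% and 14.1% in CLDN1 antibody mice, as deposited.

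Gdf15 (chromosome 8, 70629393 to 70632456, minus strand) was listed at 806, 1077, 1868, 3647 and 4811 in regular diet mice. The lowest, median and highest values were 300, 411 and 1538 in vehicle and 120, 580 and 1216 in CLDN1 antibody mice. All 12 treated mice were below the regular diet mean of 2442 ± 1727 (SD, n = 5), but the groups overlapped, since regular diet replicates 1 and 2 were below the highest vehicle and antibody values. Gdf15 fell by 1.78 in vehicle (SE 0.61, adjusted p = 0.0223, 3.42-fold) and fell by 2.11 in CLDN1 antibody mice (SE 0.61, adjusted p = 0.0110, 4.31-fold). Neither passed with each library scaled to the same total (-1.15, adjusted p = 0.155, and -1.67, adjusted p = 0.0568), and the vehicle result did not pass without regular diet replicate 4 (adjusted p = 0.0615) or 5 (adjusted p = 0.0705).

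The p53 group, which holds known inducers of growth arrest and cell death, had more genes higher than lower: 8 of 12 rose and 1 fell in vehicle mice, and 5 rose and 1 fell in CLDN1 antibody mice. The shares over all tested genes were 29.8% higher and 20.7% lower in vehicle, and 24.8% and 14.1% in CLDN1 antibody mice. Phlda3, an inhibitor of AKT, rose from 47.4 ± 30.1 (SD, n = 5) to 614 ± 182 (SD, n = 6), by 3.79 (adjusted p = 4.58e-08). Cdkn1a, which encodes p21, rose by 1.69 (adjusted p = 7.89e-06) and Eda2r, a TNF receptor family member, by 3.23 (adjusted p = 0.000109). Bbc3, which encodes the apoptosis protein PUMA, fell by 1.60 (adjusted p = 0.00467), a call lost with the same total in each library (adjusted p = 0.0899). Without regular diet replicate 1 the vehicle count was 6 higher and 3 lower.

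Among the vehicle and antibody mice, Gdf15 differed with the library codes. Codes 25 to 30 and 36 to 42 each hold 3 vehicle and 3 CLDN1 antibody mice, regular diet has codes 31 to 35, and the labels do not say what the codes stand for. This comparison was added after the values were seen. It used 1 fit of all 17 libraries, with group and code set as terms. Gdf15 had a mean of 295 in the 6 libraries with codes 25 to 30 and 1004 in the 6 with codes 36 to 42, and every library of the second set was above every one of the first. The difference was 1.75 (SE 0.42, adjusted p = 0.0441), where 1.58% of all genes passed, and leaving out any 1 of 10 of the 12 libraries ended the call (highest adjusted p = 0.124). Vehicle minus regular diet was -2.47 for codes 25 to 30 and -1.08 for codes 36 to 42. Fetub (-0.85, adjusted p = 0.173) and Lect2 (-0.86, adjusted p = 0.192) had lower fitted values in codes 36 to 42 and did not pass. Regular diet and its own codes cannot be told apart. Within regular diet, Gdf15 climbed in the order of the codes, from 806 at code 31 to 4811 at code 35, a trend that was not tested.

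**Figure D3:**
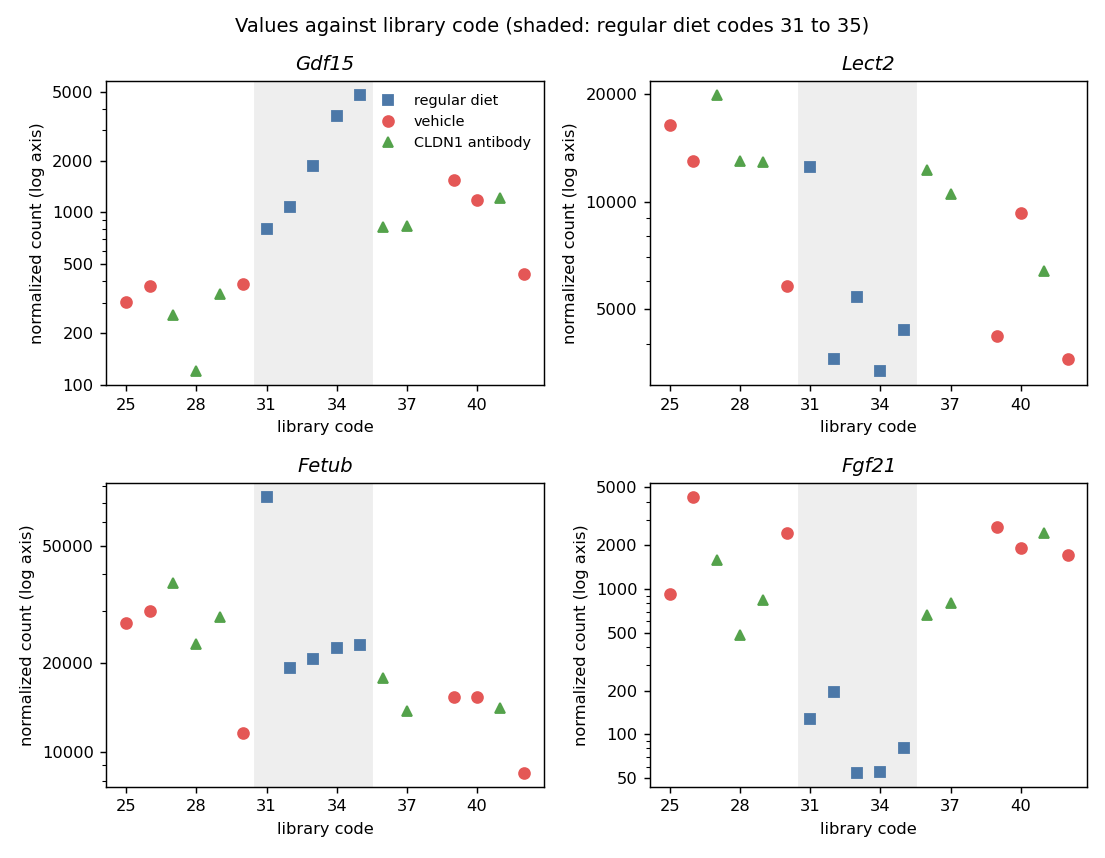
Normalized counts (log axis) of Gdf15, Lect2, Fetub and Fgf21 against the library code in the labels, with 1 point per mouse coloured by group. Gdf15 averages 295 in codes 25 to 30 and 1004 in codes 36 to 42, while Fgf21 averages 1764 and 1699.

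Angptl8 (chromosome 9, 21835510 to 21837347, plus strand, within Dock6 on the other strand, with 0 shared exon bases) was listed at 56025, 6833, 12006, 4977 and 3891 in regular diet mice. The lowest, median and highest values were 597, 1377 and 3225 in vehicle and 731, 1237 and 1410 in CLDN1 antibody mice, all below every regular diet mouse. Angptl8 fell by 2.86 in vehicle (SE 0.56, adjusted p = 0.00036, 7.24-fold) and fell by 3.08 in CLDN1 antibody mice (SE 0.56, adjusted p = 0.00025, 8.48-fold). Without regular diet replicate 1, which held 56025, the differences were -2.23 and -2.45 and both still passed (adjusted p = 0.00132 and 0.000992). The CLDN1 antibody mice were close to each other (mean 1175 ± 241, SD, n = 6) and vehicle mice more spread (1613 ± 1027, SD, n = 6).

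Of a list of regulators and targets of insulin, LXR and carbohydrate sensing, 0 of 15 rose and 9 fell in vehicle mice, and 0 rose and 8 fell in CLDN1 antibody mice. Over all tested genes 20.7% and 14.1% fell. Not all of the list belongs to the feeding side of liver metabolism: Foxo1 (-0.75, adjusted p = 0.00149 in limma) is among the 9 that fell in vehicle mice. Thrsp, a lipogenic nuclear protein, fell from 11261 ± 6150 (SD, n = 5) to 789 ± 456 (SD, n = 6), a difference of -3.95 (adjusted p = 8.30e-06). Srebf1, the master factor of fatty acid synthesis, fell by 2.29 (adjusted p = 1.58e-06) and Mlxipl, which encodes the carbohydrate sensor ChREBP, fell by 1.66 (adjusted p = 1.52e-05). With the same total in each library 5 fell in vehicle mice, the named 3 among them, and 4 in CLDN1 antibody mice.

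Angptl4 (chromosome 17, 33773750 to 33781830, minus strand) was listed at 4026, 3070, 3046, 2620 and 6063 in regular diet mice. The lowest, median and highest values were 2094, 4110 and 5198 in vehicle and 1862, 4057 and 5660 in CLDN1 antibody mice, so the 3 groups overlapped over most of their range. The log2 differences from regular diet were 0.00 with a 95% interval of -0.65 to 0.65 (adjusted p = 0.997) and 0.01 with an interval of -0.64 to 0.66 (adjusted p = 0.977). Of 4 other angiopoietin-like genes on the list, all tested, 2 rose in vehicle mice and 1 in CLDN1 antibody mice. Of all tested genes 29.8% and 24.8% rose. With the same total in each library the counts were 2 and 2, and with quantile normalization 1 and 0. In vehicle mice Angptl2 rose by 1.35 (adjusted p = 0.0305) and Angptl1 by 1.53 (adjusted p = 0.000735). Angptl1 went from means of 7.16 to 23.4, a call on low values that was lost with quantile normalization (adjusted p = 0.0883).

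Lpl, the enzyme that ANGPTL4 and ANGPTL8 inhibit, rose from 2449 ± 819 (SD, n = 5) to 32663 ± 10298 (SD, n = 6) in vehicle mice, by 3.74 (adjusted p = 2.65e-09), with no overlap. The rest of the lipoprotein lipase system did not follow it: 1 of 10 rose, Lpl itself, and 6 fell in vehicle mice, and 1 rose and 4 fell in CLDN1 antibody mice. Without regular diet replicate 1 the latter count was 1 higher and 2 lower. For all tested genes the shares were 29.8% higher and 20.7% lower in vehicle, and 24.8% and 14.1% in CLDN1 antibody mice. Pcsk6, a proprotein convertase, fell by 1.11 (adjusted p = 8.00e-05). Furin, another member of this protease family, fell by 0.95 (adjusted p = 0.000315), but not with the same total in each library (-0.33, adjusted p = 0.231). Under that scaling 2 of the 10 rose and 4 fell in vehicle mice, and 1 passed the test in CLDN1 antibody mice, as higher. Lpl is expressed by macrophages as well as by fat and muscle cells, and 6 of 8 macrophage markers rose (Trem2 by 4.69, adjusted p = 9.72e-09), with the summed values given above. The part of macrophages in the Lpl value was not tested.

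The fetuins did not pass the test. Ahsg (chromosome 16, 22891277 to 22899449, plus strand) was listed at 990905, 356329, 331470, 397086 and 322650 in regular diet mice, and 62 of its exon bases are shared with Gm30505 on the other strand. The lowest, median and highest values were 154922, 319308 and 663909 in vehicle and 335608, 444555 and 674169 in CLDN1 antibody mice. The vehicle difference was -0.49 (95% interval -1.41 to 0.43, adjusted p = 0.368) and that of CLDN1 antibody 0.10 (-0.82 to 1.02, adjusted p = 0.876). Its direction depended on the scaling: the vehicle difference was 0.13 with the same total (adjusted p = 0.712) and 0.76 with quantile normalization (adjusted p = 0.00891). Fetub, its neighbour on chromosome 16 (22918334 to 22939778, plus strand), was listed at 73455, 19197, 20672, 22468 and 23095 in regular diet mice, and its lowest, median and highest values were 8488, 15355 and 30057 in vehicle and 13800, 20533 and 37359 in CLDN1 antibody mice. Its differences were -0.74 (95% interval -1.56 to 0.08, adjusted p = 0.124) and -0.38 (-1.19 to 0.44, adjusted p = 0.478). Of 3 related cystatin-domain genes beside them, Hrg, a plasma protein that binds heparin, fell in vehicle mice (-1.11, adjusted p = 0.0179), but not with the same total (adjusted p = 0.125), and Kng1 and Kng2 did not pass (adjusted p = 0.0621 and 0.0849).

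Lect2 (chromosome 13, 56542464 to 56548502, minus strand) was, with Fgf21, 1 of the 2 members that rose in CLDN1 antibody mice. It was listed at 12455, 3626, 5394, 3352 and 4361 in regular diet mice, and its lowest, median and highest values were 3631, 7557 and 16401 in vehicle and 6392, 12594 and 19880 in CLDN1 antibody mice. Every CLDN1 antibody mouse was above regular diet replicates 2 to 5, and the overlap of these groups came from replicate 1, at 12455. Lect2 rose by 1.20 in CLDN1 antibody mice (SE 0.41, adjusted p = 0.0264, 2.30-fold). The call was lost without regular diet replicate 2, 4 or 5 or antibody replicate 1 (adjusted p = 0.0667, 0.0726, 0.0573 and 0.0606). In vehicle mice the difference was 0.55 (95% interval -0.31 to 1.41, adjusted p = 0.283), and it passed with the same total in each library (1.17, adjusted p = 0.00398) and with quantile normalization (1.02, adjusted p = 0.0163).

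Rbp4 (chromosome 19, 38116629 to 38125281, minus strand) was listed at 320443, 118691, 133414, 122581 and 121570 in regular diet mice. The lowest, median and highest values were 41509, 80372 and 138716 in vehicle and 84520, 124281 and 160485 in CLDN1 antibody mice, so 4 of the 5 regular diet values lay within the range of either group. Rbp4 fell by 0.98 in vehicle mice (SE 0.35, adjusted p = 0.0268, 1.97-fold) and differed by -0.33 in CLDN1 antibody mice (95% interval -1.07 to 0.41, adjusted p = 0.495). The vehicle call was lost with the same total in each library (-0.36, adjusted p = 0.194), without regular diet replicate 1 (-0.71, adjusted p = 0.0757) and without vehicle replicate 3, 4 or 6 (adjusted p = 0.0603, 0.0590 and 0.0629), and with quantile normalization the difference was 0.08 (adjusted p = 0.748). Of 7 other genes of retinol transport and storage, 5 fell in vehicle mice and 4 in CLDN1 antibody mice. The share of all tested genes that fell was 20.7% and 14.1%. The other tested genes of the retinol list did not pass. With the same total in each library 3 fell and 1 rose in vehicle mice and 1 fell in CLDN1 antibody mice, and with quantile normalization 3 and 2 fell. Lrp2, the receptor megalin that takes up retinol-binding protein in kidney, fell by 2.50 from a low level (means 123 and 21.9, adjusted p = 2.40e-05), Rdh11, a retinal reductase, fell by 1.27 (adjusted p = 3.22e-05), and Rdh10, a retinol dehydrogenase, fell by 0.71 (adjusted p = 0.00156), but not with the same total in each library (-0.09, adjusted p = 0.690). Ttr, the plasma partner of RBP4, had means of 441587 and 160285 (-1.52, adjusted p = 0.0118), and did not pass under quantile normalization (-0.40, adjusted p = 0.185).

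Enho (chromosome 4, 41638144 to 41640324, minus strand, with 15 exon bases shared with Dnaic1 on the other strand) was listed at 5884, 1126, 630, 1903 and 807 in regular diet mice. The lowest, median and highest values were 142, 501 and 1606 in vehicle and 832, 1288 and 2008 in CLDN1 antibody mice. The groups overlapped, and 4 of the 6 vehicle mice, at 142, 322, 487 and 514, were below every regular diet and antibody mouse. The vehicle difference of -1.41 (95% interval -2.65 to -0.17) did not pass after adjustment (adjusted p = 0.0543), and that of CLDN1 antibody was -0.20 (-1.44 to 1.03, adjusted p = 0.815). The vehicle difference passed without regular diet replicate 3 or 5 or vehicle replicate 2 or 5 (adjusted p = 0.0194 to 0.0434), and with regular diet replicate 1 left out the CLDN1 antibody difference was 0.30 (adjusted p = 0.665).

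**Figure D4:**
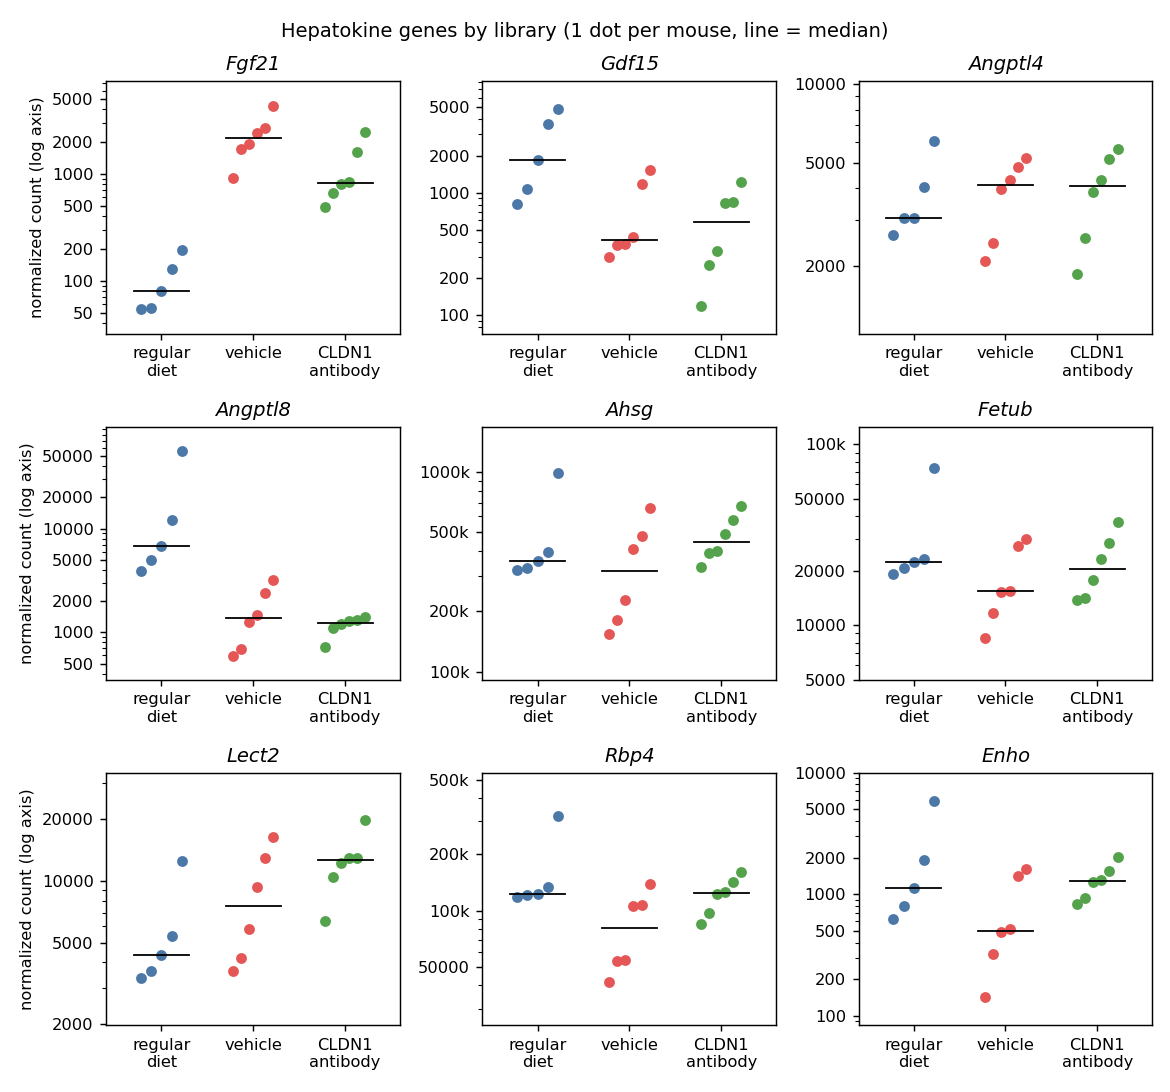
Normalized counts (log axis) of the 9 hepatokine genes in each of the 17 libraries, with 1 panel per gene, 1 point per mouse and the group median as a line. Fgf21 is at 54.3 to 194 in regular diet and at 485 or more elsewhere, and regular diet replicate 1 is the highest of its group for Angptl8, Ahsg, Fetub, Lect2, Rbp4 and Enho.

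CLDN1 antibody against vehicle compares the antibody with PBS at the same carcinogen and diet. None of the 9 genes passed the test in limma, and 0% of all 18624 genes did, 0 higher and 0 lower, and 60 genes (0.322%), no member among them, had groups that did not overlap, while 1391 genes, Fgf21 and Enho among them, had an unadjusted p under 0.05. Fgf21 had the lower mean in CLDN1 antibody mice (difference -1.11, 95% interval -1.99 to -0.23, adjusted p = 0.659), with 5 of 6 antibody mice below the vehicle mean and the highest antibody value, 2433, inside the vehicle range. The difference was -1.30 in codes 25 to 30 and -0.92 in codes 36 to 42. Enho had the higher mean (1.21, 95% interval 0.03 to 2.38, adjusted p = 0.659), with 6 of 6 antibody mice above the vehicle mean and differences of 1.02 and 1.39 in the 2 sets of codes. Rbp4 (0.65, -0.05 to 1.36), Lect2 (0.66, -0.16 to 1.48), Ahsg (0.60, -0.28 to 1.47) and Fetub (0.36, -0.42 to 1.14) had fitted values above 0, and Gdf15 (-0.33, -1.56 to 0.90), Angptl8 (-0.23, -1.35 to 0.89) and Angptl4 (0.01, -0.61 to 0.63) had intervals on both sides of 0. The members' median was 0.36 and that of all genes -0.05. Summed hepatocyte markers, without Alb and Trf, had medians of 968260 in vehicle and 1598600 in CLDN1 antibody mice, and their part in these differences was not tested. In none of the 10 pathway lists did a gene pass.

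Among the 12 vehicle and antibody mice, Ahsg, Fetub, Lect2 and Rbp4 went up and down together, and Enho went with them less clearly. Of 36 pairs of members, 9 had correlated log2 values at an adjusted p under 0.05 (permutation test), all positive and all among Ahsg, Fetub, Lect2, Rbp4 and Enho. The share of correlated pairs among all genes was not computed, so 9 of 36 cannot be set against a background. Ahsg and Rbp4 had Pearson's r = 0.965 and Spearman's rho = 0.937 (adjusted p = 0.00036 and 0.00108, permutation test; the unadjusted p of r, 1e-05, is the smallest that 100000 draws can give), with r = 0.988 within vehicle, 0.842 within CLDN1 antibody mice, and 0.919 without the 2 mice farthest from the Ahsg median. Lect2 and Rbp4 had r = 0.941 (rho 0.902), Ahsg and Lect2 0.915 (0.895), Ahsg and Fetub 0.879 (0.888) and Rbp4 and Enho 0.875 (0.720). Across the 9 pairs r was 0.687 to 0.982 within codes 25 to 30 and 0.671 to 0.971 within codes 36 to 42, and rho was 0.580 to 0.937. By rho, Ahsg with Enho (0.650, adjusted p = 0.0841, permutation test) and Lect2 with Enho (0.580, adjusted p = 0.132, permutation test) did not pass. Pearson's r of the 9 pairs was 0.662 to 0.988 within vehicle and 0.361 to 0.971 within CLDN1 antibody mice, the lowest being Ahsg with Enho, and 0.476 to 0.922 without the 2 farthest mice. The tenth pair, Fetub and Enho, had r = 0.657 (adjusted p = 0.0683, permutation test), and Lect2 with Enho no longer passed with the same total in each library (r = 0.629, adjusted p = 0.112, permutation test).

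Fgf21, Gdf15, Angptl4 and Angptl8 were in none of the 9 pairs. Fgf21 and Gdf15 had r = 0.389 and rho = 0.455 (adjusted p = 0.475 and 0.316, permutation test), and Fgf21 and Angptl8 had 0.064 and 0.210 (adjusted p = 0.909 and 0.713, permutation test). Gdf15 and Lect2 had rho = -0.741 (adjusted p = 0.0372, permutation test) but r = -0.506 (adjusted p = 0.285, permutation test), with r = -0.307 within codes 25 to 30 and 0.155 within codes 36 to 42. Summed hepatocyte markers, without Alb and Trf, went with Rbp4 (r = 0.985), Lect2 (0.949), Ahsg (0.942), Enho (0.841) and Fetub (0.825), and summed macrophage markers went against Lect2 (-0.811), Ahsg (-0.784), Rbp4 (-0.769), Fetub (-0.722) and Angptl8 (-0.663), out of 18 such relations, each of these at an adjusted p of 9e-05 to 0.0325 (permutation test). Spearman's rho was 0.678 to 0.993 for the first 5 and -0.545 to -0.853 for the others, and r without the 2 mice farthest from the marker median was 0.690 to 0.964 and -0.387 to -0.696. The weakest of the others was Angptl8, whose rho of -0.545 had an unadjusted p of 0.0708 (permutation test). With Trf in the sum, the first 5 had r = 0.603 for Fetub, which then did not pass (adjusted p = 0.0648, permutation test), to 0.850 for Rbp4. Within CLDN1 antibody mice alone the r with hepatocyte markers was 0.943 for Rbp4, 0.913 for Lect2, 0.795 for Fetub, 0.641 for Ahsg and 0.479 for Enho, against 0.815 to 0.990 within vehicle mice. Angptl8 had r = -0.967 with the macrophage markers within codes 25 to 30 and -0.125 within codes 36 to 42. For the macrophage markers the r within CLDN1 antibody mice was -0.277 for Ahsg, -0.289 for Fetub, -0.298 for Lect2 and -0.336 for Rbp4, against -0.863 to -0.940 within vehicle mice, a difference that was not tested. The part of cell composition in the correlations between the hepatokines was not tested.

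**Figure D5:**
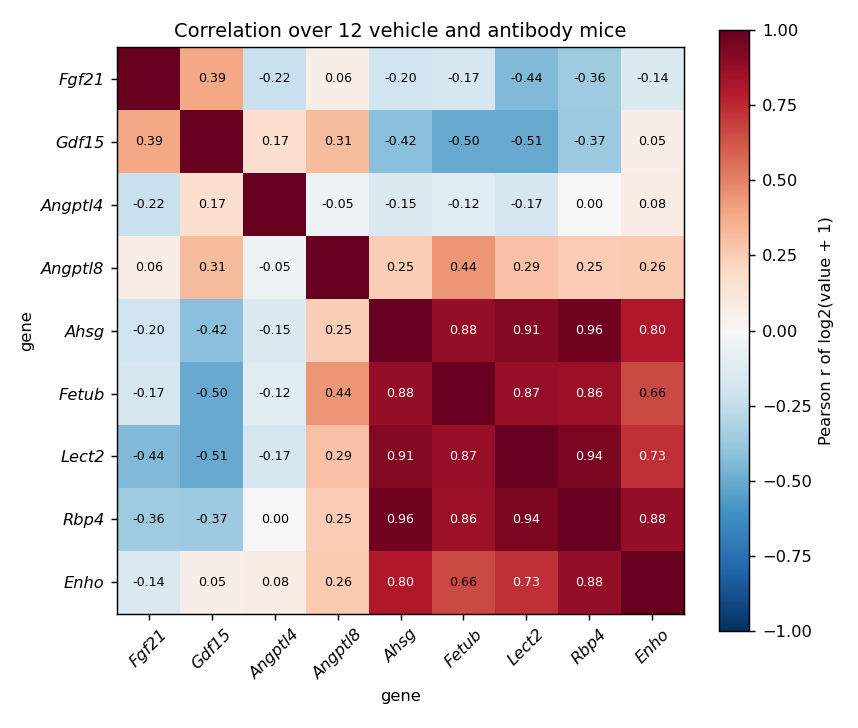
Pearson's r between log2(value + 1) of each pair of the 9 hepatokine genes over the 12 vehicle and CLDN1 antibody mice. Ahsg, Fetub, Lect2, Rbp4 and Enho form a block of positive values (0.657 to 0.965), and Fgf21, Gdf15, Angptl4 and Angptl8 have no pair that passed the test.

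The genes with the most similar pattern over these 12 mice, out of 5825 candidates, are given as a description. They were Slc3a2 (r = 0.892) and Ddit4 (0.860) for Fgf21, Irf2bpl (0.914) and Vegfa (0.885) for Gdf15, Pim3 (0.876) and Hdc (0.853) for Angptl4, and Nrbf2 (0.874) and Pts (0.860) for Angptl8. For the plasma proteins the values were higher: Cpn1 (0.984) and Vmo1 (0.980) for Ahsg, Esd (0.978) and Mrpl30 (0.975) for Fetub, Ebp (0.974) and Rdh7 (0.974) for Lect2, and F10 (0.993) and Agmat (0.993) for Rbp4. Prodh2 (0.954) and Apoa1 (0.947) were nearest to Enho. The points share their libraries and normalization.

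Of 25 tested genes for other secreted liver hormones, 4 rose and 8 fell in vehicle mice, and 4 rose and 3 fell in CLDN1 antibody mice. Gpnmb, a transmembrane protein that is also shed and that macrophages make in large amounts, rose from 100.3 ± 53.7 (SD, n = 5) to 64332 ± 44469 (SD, n = 6), by 9.01 (adjusted p = 9.15e-10). Lcn2, an iron-binding acute-phase protein, rose by 5.82 (adjusted p = 4.31e-07) and Ism1, an adipokine, by 2.57 at a very low level (means 3.07 and 19.7, adjusted p = 0.000161). Itih3, a heavy chain of the inter-alpha-trypsin inhibitors, fell by 0.98 (adjusted p = 0.00364), a call lost with the same total in each library (-0.35, adjusted p = 0.0737) and with quantile normalization (-0.07, adjusted p = 0.718). Of the 25 genes, 8 passed as higher in vehicle mice when each library had the same total and none as lower, and with quantile normalization 7 were higher and 4 lower. In CLDN1 antibody mice the counts were 8 higher and 1 lower with the same total and 6 and 2 with quantile normalization. Setting the same total in each library moved the median of all genes by 0.61 in vehicle and 0.43 in CLDN1 antibody mice against regular diet, and quantile normalization by -0.17 and -0.12. The calls over all genes in vehicle mice were 5547 higher and 3853 lower as deposited, 9369 and 1264 with the same total, and 4447 and 5223 with quantile normalization. In CLDN1 antibody against regular diet they were 4613 and 2634, 7063 and 831, and 3553 and 3725. Fgf21 and Angptl8 passed in the same direction against regular diet under each of these scalings.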

How the data were processed

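RNA from 17 livers, 1 library per mouse, was measured. The deposited signal values are counts that the authors normalized with cuffnorm of Cufflinks 2.2.1 on mm10, per the submitters' processing notes and the table itself. Which aligner, gene annotation, strandedness and cuffnorm scaling were used is not given in the sources used here. Of the 52545 Ensembl identifiers, 52398 (99.7%) were found in GENCODE M21 and had a symbol. In each library 97.7% to 98.2% of low values lay within 0.05 of a whole multiple of 1 step, which gave the estimated fragments, and no count model was used. The 18624 genes that reached 10 in 5 libraries or more were analysed on log2(value + 1) with limma 3.58.1 (R 4.3.3), two-sided, with group as the term, all 17 libraries in 1 fit and Benjamini-Hochberg adjustment. An adjusted p under 0.05 is called passed. Log2 differences are on the log2(value + 1) scale, which understates changes of low genes. The method was tested on simulated data. Correlations used log2(value + 1), permutation tests and adjustment over all pairs. Nothing in the labels says that mice came from separate cages or cohorts, so p-values reflect only how these animals varied.

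The members and lists were chosen with earlier results of these data known. All 9 members are named. Of each list, the text names up to 3 genes with the smallest p in vehicle against regular diet and the strongest of the opposite direction. The 2 genes nearest each member are those with the highest r among genes with a mean of at least 50, without unnamed models or overlapping genes. Some genes of these lists are not reported here and are left out of the lists' counts. Fgfr2, Fgfr3, Fgfr4, Gfral, Ddit3, Atf4, Ppara, Foxo1, Ttr, Kng1 and Kng2 were named after their values were seen. Alternatives were the offset, the filter, the scaling (same total, or quantile normalization), the libraries in the fit, the variance model, a replicate block, the library codes, and leaving out each mouse.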

Additional observations from a re-analysis of the deposited data

Results flagged for a closer look

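In regular diet replicate 1, 6 of the 9 hepatokine genes were far above the other 4 mice of its group, by the gap to the nearest value over the group's range. The values were 56025 for Angptl8 (nearest 12006), 990905 for Ahsg (397086), 73455 for Fetub (23095), 12455 for Lect2 (5394), 320443 for Rbp4 (133414) and 5884 for Enho (1903). No vehicle or CLDN1 antibody mouse was marked by the same rule, in 27 gene and group combinations. The rule was run on the deposited values without logs. The 6 marks come from the same library, so they are not independent and no chance rate is given. The same library had the highest deposited total, 74.6 M, and the highest summed hepatocyte markers, 4119400 without Alb and Trf. Its part in each result is given by the fits without it: Rbp4 in vehicle against regular diet no longer passed (-0.71, adjusted p = 0.0757 in limma), and Angptl8 still passed (-2.23, adjusted p = 0.00132).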

How the results depend on the processing

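Fgf21 and Angptl8 kept their direction and passed against regular diet under every alternative run. The count of members called was 3 to 6 in vehicle and 3 to 6 in CLDN1 antibody against regular diet, and 0 between antibody and vehicle throughout, where 2 genes of all passed with no filter. Of all alternative values, 775 were unchanged. For differences and correlations this means the same direction and side of the threshold. For counts it means within 1.5 times, and for group means a shift smaller than the group's SD. Of the rest, 28 lost a call, 12 gained one, 55 changed sign, and 19 counts or group means moved beyond these limits. The cause was not tested. In vehicle against regular diet the sign changed with the same total for Ahsg (0.13), and with quantile normalization for Ahsg (0.76), Fetub (0.089) and Rbp4 (0.076). With the same total and without regular diet replicate 1, chosen after seeing the data, Ahsg was 0.31 and Fetub 0.13. In CLDN1 antibody against regular diet it changed for Fetub, Rbp4 and Enho with the same total (0.064, 0.11 and 0.24), for Fetub and Rbp4 with quantile normalization (0.23 and 0.48), and for the 3 with the same total and without regular diet replicate 1 (0.30, 0.27 and 0.62). Between antibody and vehicle Angptl4 was -0.17 with the same total and -0.10 with quantile normalization. Lect2 in CLDN1 antibody against regular diet did not pass with no filter (adjusted p = 0.0508 in limma), and Rbp4 in vehicle did not pass with only the groups compared in the fit (adjusted p = 0.0660). With the same total, r changed sign for Fgf21 with Angptl4 (0.011), Angptl4 with Rbp4 (-0.33) and Enho (-0.14), and Angptl8 with Ahsg (-0.036) and Rbp4 (-0.044).

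Leaving out each mouse in turn gave these ranges where the sign or a count changed. In vehicle against regular diet Angptl4 was -0.11 to 0.19. In CLDN1 antibody against regular diet Angptl4 was -0.11 to 0.21, Ahsg -0.0037 to 0.40 and Enho -0.50 to 0.30. Between antibody and vehicle Gdf15 was -0.62 to 0.051, Angptl4 -0.14 to 0.20 and Angptl8 -0.46 to 0.022. Between the library codes, 0 to 2 members and 169 to 1371 genes passed, against 294 with no mouse left out. The count was 444 with the same total and 638 with quantile normalization. The lowest count was without vehicle replicate 6 and the highest without vehicle replicate 3. There Fgf21 was -0.13 to 0.39, Angptl8 -0.20 to 0.34 and Enho -0.58 to 0.16.

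The replicate numbers in the titles did not pair the mice: same-numbered vehicle and antibody mice had correlations of -0.20 to 0.66, and not each best matched its own number. With the replicate block, 5 members passed in vehicle against regular diet, Lect2 being added (0.74, adjusted p = 0.0233 in limma), and Enho was 0.034 in CLDN1 antibody against regular diet. Depth limits Fgf21 most, with an estimated 148 fragments at most in regular diet libraries.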
